A study of Mus musculus with 10 samples.

Results

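The tripartite motif (TRIM) family was followed in the retina of albino BALB/c mice with and without damage by bright light. Members were taken as the protein-coding rows of the deposited expression table whose symbol is Trim followed by a number and, where present, a letter, and 67 of them, among the 54532 genes listed, are described. Of these, 53 were at or above 0.1 FPKM (a read number scaled to gene length and library size) in at least 5 of the 10 retinas and were tested, and the other 14 are described by their reads. Both groups were 2-month-old animals of the same strain without any transgene or deletion, kept in the dark for 12 h beforehand. The 5 normal light (NL) retinas then stayed at 200 lux, and the 5 light damage (LD) retinas were exposed to 15000 lux in non-reflecting cages for 1 day. RNA of the whole retina was sequenced, so that fewer cells of a type and less RNA per cell cannot be told apart. The labels number the retinas without saying which came from separate mice, and p-values therefore measure the spread between these samples.

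TRIM proteins carry a RING finger, 1 or more B-boxes and a coiled coil, followed by a C-terminal part that differs between subfamilies. The RING finger makes most of them E3 ubiquitin ligases, and the C-terminal part, most often a SPRY domain, picks the partner. A part of the family is induced by interferon and acts in antiviral defence, either by binding viral components or by attaching ubiquitin chains to sensors and adaptors such as those downstream of RIG-I and STING. Other members work in the nucleus on chromatin, on microtubules, in muscle or in nerve cells. In mouse, the relatives of the retroviral restriction factor TRIM5 and of Trim30 lie side by side on chromosome 7. The interferon-stimulated response element (ISRE), which the factor ISGF3 and the IRF proteins bind, contains 2 GAAA blocks.

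The promoters of the called members that hold such a pair of blocks are shown first, with Trim34b, which was called as well, for contrast. Each runs 5′ to 3′ along the strand of its gene, from 250 bases before to 50 bases after the RefSeq start, and capitals mark every match to the ISRE core (GAAA, any 2 bases, then GAAA) on either strand. The windows are on GRCm38.p6 at chr7:102565433-102565732 (minus strand) for Trim21, chr7:104244207-104244506 (plus strand) for Trim34a, chr7:104329221-104329520 (plus strand) for Trim34b, chr7:104353300-104353599 (minus strand) for Trim12c and chr7:104465144-104465443 (minus strand) for the upstream start of Trim30a.
Trim21: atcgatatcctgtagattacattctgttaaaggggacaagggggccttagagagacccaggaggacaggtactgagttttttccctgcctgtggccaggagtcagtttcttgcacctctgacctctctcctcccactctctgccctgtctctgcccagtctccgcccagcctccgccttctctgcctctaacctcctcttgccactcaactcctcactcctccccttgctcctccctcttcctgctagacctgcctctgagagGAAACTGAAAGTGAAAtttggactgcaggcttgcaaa
Trim34a: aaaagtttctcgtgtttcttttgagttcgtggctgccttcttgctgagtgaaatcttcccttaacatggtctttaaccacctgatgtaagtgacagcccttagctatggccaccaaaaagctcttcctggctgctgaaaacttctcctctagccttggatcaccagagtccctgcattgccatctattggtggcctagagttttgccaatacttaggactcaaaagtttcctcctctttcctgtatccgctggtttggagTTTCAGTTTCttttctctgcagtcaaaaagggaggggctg
Trim34b: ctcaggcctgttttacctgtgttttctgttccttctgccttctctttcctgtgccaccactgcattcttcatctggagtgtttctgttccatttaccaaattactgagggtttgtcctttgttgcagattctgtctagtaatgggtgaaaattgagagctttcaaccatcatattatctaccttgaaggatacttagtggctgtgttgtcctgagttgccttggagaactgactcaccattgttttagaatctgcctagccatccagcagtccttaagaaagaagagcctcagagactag
Trim12c: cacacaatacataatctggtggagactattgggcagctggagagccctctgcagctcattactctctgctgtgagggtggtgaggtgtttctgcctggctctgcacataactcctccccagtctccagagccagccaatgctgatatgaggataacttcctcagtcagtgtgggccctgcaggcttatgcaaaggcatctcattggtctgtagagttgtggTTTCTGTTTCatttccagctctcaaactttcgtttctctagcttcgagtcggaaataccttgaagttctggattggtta
Trim30a: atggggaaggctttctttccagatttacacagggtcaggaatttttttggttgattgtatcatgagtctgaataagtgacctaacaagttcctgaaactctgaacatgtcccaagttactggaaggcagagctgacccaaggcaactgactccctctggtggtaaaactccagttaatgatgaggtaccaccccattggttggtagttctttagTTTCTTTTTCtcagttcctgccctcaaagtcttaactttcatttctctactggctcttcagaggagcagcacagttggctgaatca

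Trim21 held 2 overlapping matches, the first beginning 14 bases after the start. The match began 11 bases after the start in Trim34a, at position -29 in Trim12c and at position -36 in Trim30a, and no match lay in the Trim34b window. Among all 32851 promoter windows of the RefSeq table, 3.44% held a match, or 3.99% of the 27025 genes. Promoters were listed for 52 of the 67 members, and 9 of the 52 held the core. By call, these were 4 of the 8 members called higher, 3 of the 33 tested but not called (Trim2, Trim26 and Trim30d) and 2 of the 11 not tested (Trim5 and Trim12a). A gamma-activated site, TTCNNNGAA, was in 8.30% of all windows, in 6 of the 52 members and in 0 of the 8 called higher. Promoters within the cluster on chromosome 7 share sequence, so that their matches do not count as separate instances. The shared stretches are shown as the 60 bases around the match.
Trim5: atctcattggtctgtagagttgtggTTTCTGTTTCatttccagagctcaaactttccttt
Trim12a: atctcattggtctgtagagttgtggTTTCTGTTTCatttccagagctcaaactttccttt
Trim12c: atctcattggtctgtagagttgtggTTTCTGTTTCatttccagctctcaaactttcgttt
Trim30a: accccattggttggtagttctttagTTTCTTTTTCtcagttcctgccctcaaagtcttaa
Trim30d: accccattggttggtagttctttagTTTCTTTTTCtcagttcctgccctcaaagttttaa

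The windows of Trim5 and Trim12a were identical at 60 of 60 bases, and each matched the window of Trim12c at 57. The windows of Trim30a and Trim30d matched at 59 of 60 bases, whereas those of Trim12c and Trim30a shared 31. The match began at position -49 in Trim5, 11 bases after the start in Trim12a and at position -41 in Trim30d. Near-identical blocks thus lay near the starts of genes that differed in read number, as given below, though not at the same distance. All windows are those of the reference genome, and BALB/c sequence was not examined.

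The 10 retinas held 18965090 to 26832535 reads in genes. Rod photoreceptor markers (6 genes, Gnat1 among them, all called lower) identified the tissue as retina and summed to 4558 to 5271 FPKM in NL against 750.3 to 1522 in LD. Microglia markers (7 of 7 detected, 4 called higher) summed to 19.6 to 34.2 in NL and 41.6 to 104 in LD, with LD-1 at 104 and LD-7 at 89.5. The largest parts of this sum were C1qa (mean 10.1 FPKM in NL and 37.3 in LD) and C1qb (4.46 and 20.3). Not called were Csf1r (log2 fold change 0.74, limma adjusted p = 0.0412), Tmem119 (0.22, 0.528) and P2ry12 (-0.74, 0.122). Muller glia markers (5 of 5 tested) summed to 1134 to 1348 in NL and 645 to 864 in LD, with Glul called lower (log2 fold change -2.09) and Vim called higher (2.02). The median log2 fold change of this list was -0.01, while Glul went from a mean of 711 FPKM in NL to 165 in LD. Markers of infiltrating myeloid cells (4 of 6 tested, 2 called higher) summed to 1.04 to 3.02 in NL and 6.35 to 12.3 in LD. Most of this sum was Lyz2 (mean 1.58 FPKM in NL and 9.14 in LD), called higher as was Plac8 (0.00619 and 0.232). S100a8 (log2 fold change 1.02, limma adjusted p = 0.121) and S100a9 (-0.16, 0.792) were not called. Ccr2 and Ly6c2 did not pass the filter, at means of 0.0728 and 0.139 FPKM in LD. Markers of T and NK cells summed to 0.180 to 0.223 and 0.110 to 0.292, with 4 of 5 under 0.1 FPKM in every retina. Xist was above 1 FPKM in 2 retinas of each group, which in LD were LD-4 and LD-6.

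The TRIM transcripts together summed to 378 to 390.2 FPKM in NL and 429 to 434 in LD. Most of this came from members expressed throughout: Trim44, a member without a RING finger, was the most abundant at 58.9 FPKM over all retinas, before Trim28 (43.3), Trim32 (31.3), Trim35 (26.0) and Trim41 (25.8). After LD, 10 of the 53 tested members (18.9%) passed both a limma adjusted p of 0.01 and a 2-fold change and are termed called, against 6.51% of the 24508 genes tested. These were 9 members called higher (17.0%, against 4.13% of all genes) and 1 called lower (1.89%, against 2.37%). At an adjusted p under 0.05 with no limit on the fold, 16 members (30.2%) were higher, where 14.5% of all genes were, and 6 (11.3%) were lower, where 13.4% were. NL and LD values did not overlap for 19 members (35.8%), against 22.4% of all genes. Of these, 14 were higher (26.4%, against 11.8% of all genes) and 5 lower (9.43%, against 10.6%). The median log2 fold change was 0.14 over the members and -0.01 over all genes tested, and 36 of the 53 members lay above 0. The factor that the authors applied to each retina sets this zero: without it the median of all genes was 0.11, a shift of 0.12. Without the factor, or after rescaling to TPM, 22 members were higher and 2 lower at an adjusted p under 0.05, in place of 16 and 6.

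**Figure D1:**
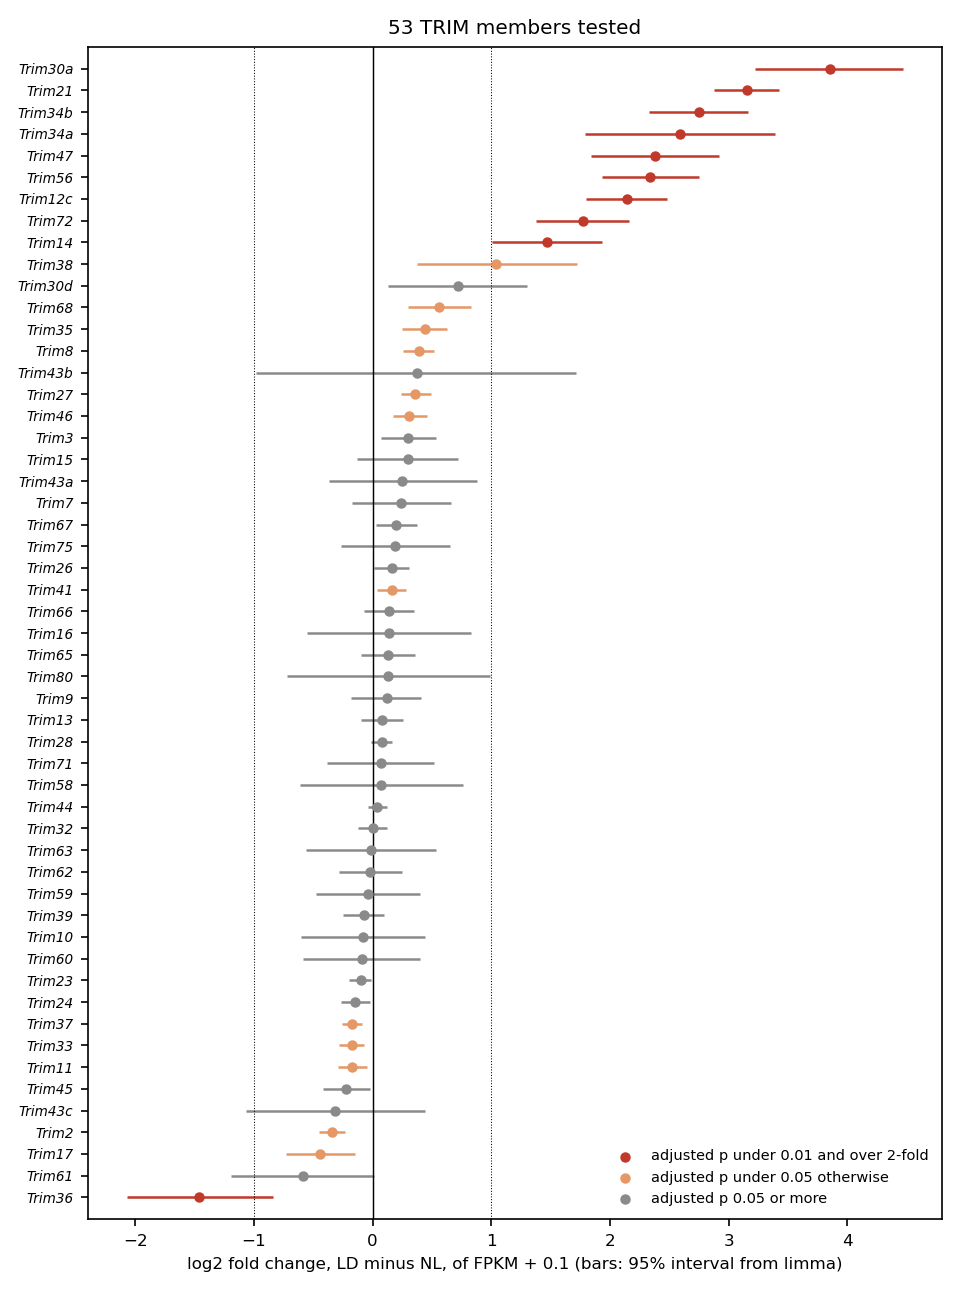
Log2 fold change (LD minus NL) of FPKM + 0.1 for the 53 members tested, one row each, with the 95% interval from limma. Dotted lines mark 2-fold. The 9 members called higher lie at 1.47 or more and the 1 called lower at -1.46, while most of the others lie close to 0 with intervals that widen for members of low expression.

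The 9 members called higher made up 1.48 to 1.80% of the summed TRIM expression in NL and 8.02 to 10.5% in LD, a share that follows from how they were chosen. Trim21, a cytosolic antibody receptor that directs bound antibody and its cargo to the proteasome, moved from place 34 to place 14 among the 67 members by mean FPKM. Trim56 moved from 32 to 18, Trim12c from 30 to 19 and Trim30a from 51 to 33.

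Trim30a, with the largest log2 fold change on this scale, and 3 other called members lie in the cluster on chromosome 7, whose 10 members occupy 289 kb at chr7:104218793-104507849 (GRCm38). Of these, 5 had enough reads to be tested and 4 were called higher. Their median log2 fold change was 2.59. All except Trim6, Trim34a and Trim34b are transcribed from the minus strand.

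Trim30a encodes an interferon-inducible protein that restrains NF-κB signalling through the adaptors TAB2 and TAB3. Its values were 0.193, 0.0573, 0.0719, 0.0573 and 0.0377 FPKM in NL-1, NL-4, NL-5, NL-7 and NL-8, from 17, 5, 6, 5 and 4 reads. They were 3.66, 1.80, 2.17, 3.48 and 1.73 FPKM in LD-1, LD-4, LD-6, LD-7 and LD-8, from 150 to 367 reads. The groups were fully separate, NL-1 was the highest of its group, and LD-1 and LD-7 stood above the other LD retinas. The log2 fold change was 3.85 (SE 0.28, limma adjusted p = 5.21e-06, exact permutation p = 0.00794, two-sided, the smallest that 5 against 5 retinas can give). Microglia markers were also highest in NL-1 among the NL retinas (34.2) and in LD-1 and LD-7 among the LD retinas, and their part in this result was not tested. Trim30a reached 0.1 FPKM in 1 NL retina and passed the filter through its LD values. With NL values this low, the size depended on the number added: with 1 in place of 0.1 the log2 fold change was 1.68, below the 2.41 of Trim21, and limma-voom on the recovered reads gave 5.04, each still a call.

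Trim34b and Trim34a are close copies related to TRIM34, an interferon-induced partner of TRIM5. Trim34b was at 0.278, 0.356, 0.319, 0.280 and 0.230 FPKM in the NL retinas, in the order above, and at 2.55, 2.32, 3.41, 2.94 and 1.70 in the LD retinas. All 5 LD values were several times the highest NL value, and the log2 fold change was 2.75 (SE 0.19, limma adjusted p = 3.13e-06), or 1.45 with 1 added to the FPKM. Trim34a was at 0.162, 0.0182, 0.0760, 0.0182 and 0.105 FPKM in NL, from 1 to 9 reads, and at 1.25, 1.07, 1.16, 1.13 and 0.329 in LD. The groups did not overlap, and LD-8 was the lowest LD retina for both copies, well below the others for Trim34a. The log2 fold change of Trim34a was 2.59 (SE 0.36, limma adjusted p = 3.97e-04). Of the stretches of 100 bases in the Trim34b transcripts, 30.5% also occur in Trim34a, so the reads of the pair may have been divided between them. Trim34a reached 0.1 FPKM in 2 NL retinas. With 1 in place of 0.1 added to the FPKM its log2 fold change was 0.86, below 2-fold, and with the 3 most similar pairs of retinas averaged its limma adjusted p was 0.0133.

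Trim12c, a relative of TRIM5 that activates NF-κB and interferon signalling, had the highest level of the cluster. It was at 2.04, 1.21, 1.44, 1.44 and 1.61 FPKM in NL and 6.70, 7.03, 9.17, 7.37 and 5.44 in LD. The lowest LD retina thus stood clearly above the highest NL retina. Its log2 fold change was 2.14 (SE 0.15, limma adjusted p = 4.67e-06). Trim12c shares 8.05% of its 100-base stretches with other genes, mainly Trim5. The fifth tested member, Trim30d, had a log2 fold change of 0.72 (SE 0.26, limma adjusted p = 0.0670), and its NL (0.0786 to 0.288 FPKM) and LD (0.196 to 0.446 FPKM) values overlapped.

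The other cluster members had too few reads. No read of Trim5, Trim12a, Trim30b or Trim30c was counted in any NL retina, where the limit of 3 reads that a count of 0 allows corresponds to at most 0.0861 FPKM for Trim30c. In the LD retinas 0 to 3 reads were counted for Trim5, 0 to 4 for Trim12a, 1 to 2 for Trim30b and 2 to 6 for Trim30c. Trim6, which makes the ubiquitin chains that activate the kinase IKKε, had 0 to 3 reads in NL and 4 to 14 in LD. Each of these 5 genes therefore had more reads in all in LD than in NL, at levels where no fold change is given. On the reference genome, Trim5 and Trim12a have the same motif window as each other, nearly that of Trim12c. They had 7 and 6 reads over all LD retinas, where Trim12c had 2992. BALB/c sequence at these genes was not examined.

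**Figure D2:**
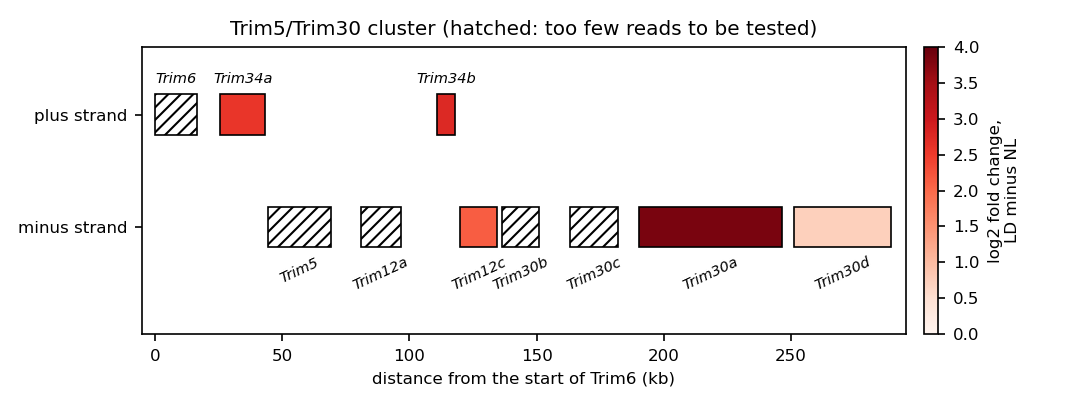
Map of the 10 members of the Trim5/Trim30 cluster along chromosome 7, in kb from the start of Trim6, with genes on the plus strand above those on the minus strand. Fill gives the log2 fold change (LD minus NL) and hatching marks the 5 members with too few reads; Trim30a is the darkest at 3.85 and its neighbour Trim30d the palest of those tested at 0.72.

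Of the 27 other SPRY members, 25 were tested and 4 were called higher. Trim21 had the smallest error of the called members. It was at 1.02, 0.951, 0.889, 0.837 and 1.29 FPKM in NL and at 9.14, 8.91, 10.2, 11.3 and 8.46 in LD, so that both groups were tight and far apart. The log2 fold change was 3.15 (SE 0.12, limma adjusted p = 5.63e-08), and none of its 100-base stretches occurs in another gene.

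Trim47, first described in astrocytic tumours, was at 0.547, 0.689, 1.01, 0.620 and 0.425 FPKM in NL and at 2.47, 4.26, 4.02, 3.03 and 5.57 in LD. The lowest LD retina exceeded the highest NL retina, with a log2 fold change of 2.38 (SE 0.24, limma adjusted p = 5.29e-05), or 1.53 with 1 added to the FPKM. It overlaps Trim65 on the same strand over 5365 bp, and Trim65, a ligase for the RNA sensor MDA5, showed a log2 fold change of 0.13 (limma adjusted p = 0.419).

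Trim72, also named MG53, is known for resealing the plasma membrane of striated muscle. It was at 0.880, 1.12, 1.26, 0.844 and 1.11 FPKM in NL and at 3.09, 4.40, 4.68, 2.67 and 4.33 in LD. The groups did not overlap, and the log2 fold change was 1.77 (SE 0.18, limma adjusted p = 4.28e-05). Skeletal muscle markers (6 genes, 4 tested, 0 called by limma or limma-voom, 2 with an unadjusted p under 0.05) summed to 3.76 to 5.80 FPKM in NL and 3.40 to 3.87 in LD, so that they were not higher in LD. Of the 100-base stretches of Trim72, 19.7% also occur in its antisense transcript Gm15533, which had a log2 fold change of 0.08 (limma adjusted p = 0.775).

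Trim14 lacks a RING finger and acts as an adaptor of MAVS at mitochondria. It was at 0.0862, 0.0434, 0.0341, 0.0651 and 0.116 FPKM in NL, from 3 to 13 reads, and at 0.265, 0.409, 0.495, 0.364 and 0.311 in LD, from 28 to 48 reads. Even the lowest LD retina was above the highest NL retina, and the log2 fold change was 1.47 (SE 0.21, limma adjusted p = 4.28e-04). Trim14 lies over 9852 bp of Nans on the opposite strand and shares 27.7% of its 100-base stretches with it. Nans itself was higher by 0.35 (limma adjusted p = 0.00973). Trim14 reached 0.1 FPKM in 1 NL retina, and with 1 added to the FPKM its log2 fold change was 0.35.

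Trim56, a member without a C-terminal domain that acts on STING and on RNA viruses, was the remaining call. It was at 1.70, 1.37, 1.57, 1.42 and 1.34 FPKM in NL and at 5.34, 10.5, 10.4, 6.18 and 8.37 in LD. LD-1 and LD-7 were the lowest of the LD retinas, yet both were well above every NL retina. The log2 fold change was 2.34 (SE 0.19, limma adjusted p = 8.43e-06). The exact permutation p was 0.00794, two-sided, for each of the 10 called members.

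**Figure D3:**
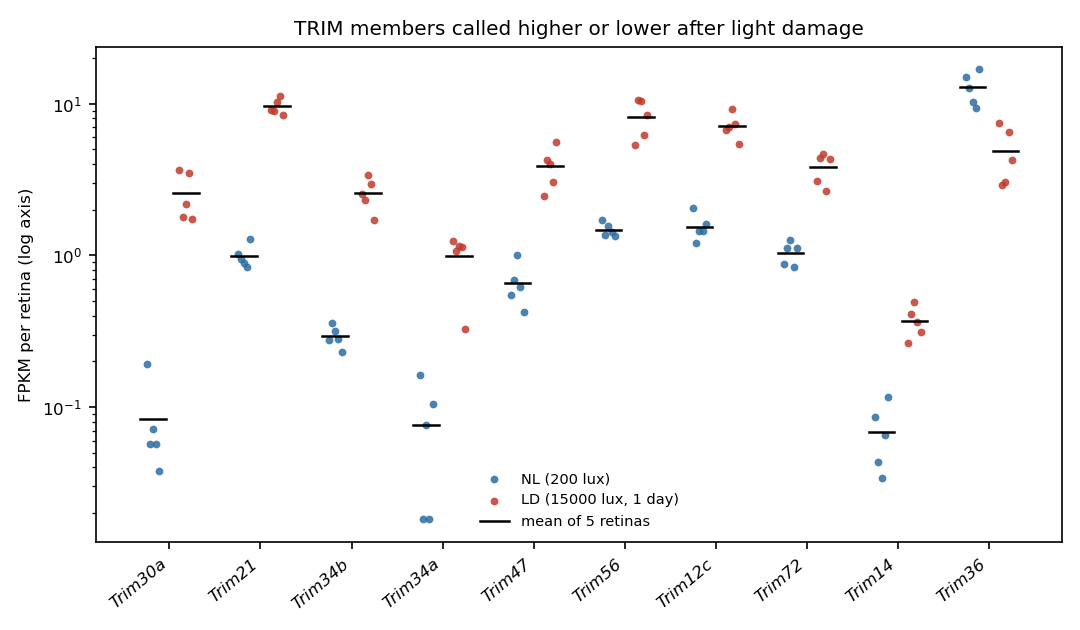
FPKM on a log axis for the 10 called members in each NL (blue) and LD (red) retina, with black lines at the mean of 5 retinas. The 2 colours do not overlap for any of these members; Trim36 at the right is the one with NL above LD.

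The 1 member called lower was Trim36, a ligase of the COS box group that binds microtubules and is known from sperm. It was at 14.9, 12.7, 10.3, 9.30 and 16.8 FPKM in NL and at 7.51, 2.89, 3.03, 6.53 and 4.25 in LD. All LD retinas were below all NL retinas, with a mean of 12.8 ± 3.11 (SD, n = 5) in NL and 4.84 ± 2.09 (SD, n = 5) in LD. The log2 fold change was -1.46 (SE 0.28, limma adjusted p = 0.00292). The 5 LD retinas differed by up to 2.60-fold, and LD-4 and LD-6, the 2 lowest, were also those with the lowest sum of rod markers (750.3 and 799 FPKM). Among the NL retinas the order differed, since NL-8 had the lowest rod sum (4558) and the highest Trim36. The part of rod RNA in this result was not tested. Averaging the 3 most similar pairs of retinas moved the limma adjusted p to 0.0103, just past the threshold. None of the Trim36 100-base stretches occurs in another gene. The transcript 1700018A14Rik, which overlaps it on the opposite strand by 711 bp, had a log2 fold change of -1.52 (limma adjusted p = 0.0305). The other 3 members of the COS box group are neuronal. Trim46, which organises microtubules at the axon initial segment, was higher by 0.31 (limma adjusted p = 0.00459), and the intervals of Trim9 and Trim67 are in the plot of all tested members.

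The called members did not vary together between the LD retinas. Relative to the mean of the LD group on the log2 scale, LD-1 and LD-7 were at 0.56 and 0.49 for Trim30a and at 0.73 and 0.53 for Trim36, but at -0.55 and -0.34 for Trim56, -0.27 and -0.47 for Trim72, and -0.57 and -0.29 for Trim47. Trim21, Trim12c and Trim14 stayed within 0.38 of their group mean in every LD retina. For Trim14, whose FPKM is low, the added 0.1 shrinks these deviations. Its largest LD value was 1.87 times its smallest, against 1.75 for Trim72. Trim43a, Trim43b and Trim43c, best known from the early embryo, had the same LD-1 and LD-7 excess, at 0.61 to 1.29. They were not called (log2 fold changes 0.25, 0.37 and -0.32, limma adjusted p = 0.558, 0.704 and 0.544), and Trim43b spanned 1.05 to 6.25 FPKM within LD alone. Of their 100-base stretches, 13.4 to 30.5% also occur in other genes, for Trim43c mostly in 9330159M07Rik (22.9%). Trim56 and Trim72 were highest in LD-4 and LD-6, although Trim72 in LD-8 (4.33 FPKM) was close to LD-4 (4.40). Marker sums of several cell types were also highest in LD-4 and LD-6. For endothelium the sums were 80.6 and 79.7 FPKM, against 47.4 to 50.8 in the other LD retinas. They were 783 and 864 for Muller glia (others 645 to 714) and 371 and 374 for bipolar cells (others 245 to 325). They were 12.3 and 11.9 for infiltrating myeloid cells (others 6.35 to 9.94). Few genes made up most of some of these sums. By LD mean these were Kdr (49.8 FPKM) for endothelium, Apoe (338) and Glul (165) for Muller glia, and Lyz2 (9.14) for infiltrating myeloid cells. Such sums follow these genes more than the rest of each list. The sum of amacrine and ganglion cell markers was highest in LD-4 and LD-6 as well. LD-4 and LD-6 were also the LD retinas with Xist above 1 FPKM. The part of these cell types, of microglia or of Xist presence in the differences between LD retinas was not tested.

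**Figure D4:**
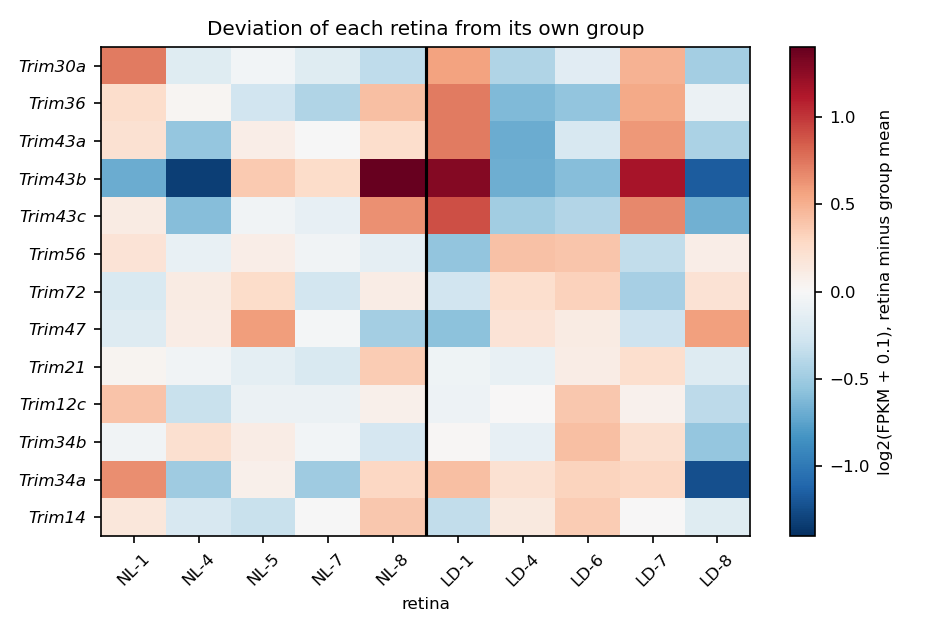
Deviation of log2(FPKM + 0.1) of each retina from the mean of its own group, for the 10 called members and the 3 Trim43 genes, with NL retinas left and LD retinas right of the line. In LD-1 and LD-7, Trim30a, Trim36 and the Trim43 genes are red (above the group) whereas Trim56, Trim72 and Trim47 are blue.

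A further 7 members were higher at a limma adjusted p under 0.05 without being called. Trim38, a regulator of Toll-like receptor and cGAS signalling, was nearest to a call, at 0.0936, 0.236, 0.0986, 0.118 and 0.116 FPKM in NL and 0.144, 0.543, 0.447, 0.286 and 0.584 in LD. NL-4 lay above LD-1, so the groups overlapped, and the log2 fold change was 1.04 (SE 0.31, limma adjusted p = 0.0269). Without LD-1 it was 1.28 (limma adjusted p = 0.00445), which would be a call, whereas leaving out any 1 of NL-1, NL-5, NL-7, NL-8, LD-4, LD-6 and LD-8 put the limma adjusted p between 0.0544 and 0.0657. The other 6 changed by less than 2-fold. Trim68 was higher by 0.56, Trim35 by 0.44, Trim8, which is linked to STAT3 and SOCS1, by 0.39, Trim27 by 0.36, Trim46 by 0.31 and Trim41 by 0.16, with limma adjusted p from 6.23e-04 to 0.0444. Trim35 and Trim41 are among the 5 most abundant members, so that 0.44 for Trim35 was a step from 22.0 ± 0.898 to 30.0 ± 4.13 FPKM (SD, n = 5 each).

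Of the 5 members that were lower at an adjusted p under 0.05 without being called, Trim17, linked to the death of neurons, had the largest change at -0.44 (SE 0.13, limma adjusted p = 0.0299). Trim2, an NHL repeat protein that ubiquitinates neurofilament light chain in axons, was at 11.5 to 12.7 FPKM in NL and 8.73 to 10.2 in LD. Its groups did not overlap, and its log2 fold change was -0.34 (limma adjusted p = 5.61e-04). Trim37, Trim33 and Trim11 were each at -0.17 (limma adjusted p = 0.00682, 0.0217 and 0.0354). Of the 12 members higher or lower at this level without a call, 7 stayed under 0.05 with any 1 retina left out. The exceptions were Trim38, Trim41 and Trim11, with 8 of 10 omissions at 0.05 or more for each of the latter pair (up to 0.101 and 0.0828), Trim17 with 6 (up to 0.0728) and Trim33 without NL-8 (0.0503). These small falls depend on the scale. Without the scaling factors Trim37, Trim33 and Trim11 were each at -0.04 (limma adjusted p = 0.438, 0.545 and 0.651) and Trim17 at -0.31 (0.112), and rescaling to TPM also took these 4 past 0.05 (0.0734 to 0.455), so that Trim2 and Trim36 alone of the 6 lower members held under both.

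The chromatin members moved little. Trim28, the corepressor that zinc finger proteins recruit to silence retroelements, was at 42.2 ± 1.49 FPKM in NL and 44.5 ± 1.12 in LD (SD, n = 5 each). This log2 difference was 0.08 (95% interval -0.01 to 0.16, limma adjusted p = 0.157). Of the 9 partners of Trim28 on a list of its silencing complex, 0 were called and Cbx3 was lower by an adjusted p under 0.05 (-0.17, limma adjusted p = 0.0279). Without the adjustment, 2 partners had a p under 0.05, and limma-voom on the recovered reads called 0. The smallest changes among members were those of Trim32, a muscle and brain NHL protein, at 0.00 (95% interval -0.12 to 0.12), Trim63, a muscle ligase, at -0.01 (-0.56 to 0.53) and Trim62 at -0.02 (-0.28 to 0.25). The interval of Trim32 is narrow, while that of Trim63, at a mean of 0.232 FPKM, leaves room for changes of more than 0.5. Just under the adjusted p of 0.05 stood Trim41 at 0.0444, and just above it Trim3 at 0.0526 with a log2 fold change of 0.30. At the filter, Trim58, Trim30a and Trim14 were just inside, with 6 retinas at 0.1 FPKM, and Trim55 was just outside, with 4.

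Beyond the cluster on chromosome 7, 9 members were not tested. No read of Trim31, Trim42 or Trim52 was counted in any of the 10 retinas, and Trim40 had 1 read, in NL-5. Trim29, Trim50, Trim54 and Trim69 had reads in some retinas, and Trim55 in all 10, without reaching 0.1 FPKM in 5 of them. Trim54 and Trim55 are muscle ligases related to Trim63.

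Genes that work with TRIM proteins were examined as lists, which were chosen with earlier results of these data known. Of all genes tested, 4.13% were called higher and 6.51% in either direction. These shares apply to the marker lists above as well. Of 12 genes of type I interferon signalling, all tested, 8 were called higher, with the largest changes in Irf7 (3.90), Irf1 (3.52) and Irf8 (3.24) and a median of 1.68, while Irf3 was lower by less than 2-fold (-0.32, limma adjusted p = 0.00215). Of 9 nucleic acid sensors and adaptors in the table, 6 were called higher, led by Zbp1 (3.97), Ddx58 (3.82), which encodes RIG-I, and Ifih1 (3.65), which encodes MDA5, and Mavs, their adaptor, was lower (-0.32, limma adjusted p = 0.00850). Among 12 E2 enzymes and ubiquitin-like partners, 3 were called higher with a median of 0.09 over the list: Isg15 (4.54), its activating enzyme Uba7 (3.15) and its conjugating enzyme Ube2l6 (2.83), while the general E2 enzymes Ube2d1, Ube2d2a, Ube2d3 and Ube2n lay between 0.03 and 0.06 and Ube2w was lower (-0.20, limma adjusted p = 0.00502). Of 7 genes of the TRIM class under other names, 4 were tested and 1 was called: Pml, also known as Trim19, was at 1.50 ± 0.123 FPKM in NL and 4.42 ± 0.937 in LD (SD, n = 5 each), which is 1.48 on the log2 scale (limma adjusted p = 3.24e-05). All these values are log2 fold changes of LD against NL.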

How the data were processed

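RNA of 10 BALB/c mouse retinas, 5 NL and 5 LD, was sequenced, and groups were taken from the sample labels. The authors deposited FPKM values per gene with positions on GRCm38. The submitters' processing notes name TopHat2 2.0.9, Bowtie2 2.0.6 and mm8, which is not the build of the positions. The counting program is not given in the sources used here. FPKM times gene length was a whole number of reads for 100.0% of values (tolerance 0.01 reads), so reads were recovered. Depth was 18965090 to 26832535 reads. Limits for counts of 0 reflect counting error alone. The values analysed were log2(FPKM + 0.1), fitted across the 24508 genes at 0.1 FPKM or more in at least 5 retinas, in limma 3.58.1 (R 4.3.3) with a mean-variance trend and without a block, and p-values were adjusted over all of them by Benjamini-Hochberg. The fit was tested on simulated data. A call needed both an adjusted p under 0.01 and more than a 2-fold change. Fold changes on this scale understate changes of low genes. Single members were also put through exact permutation tests, two-sided, that reassign retinas (scipy 1.17.1, numpy 2.4.6, pandas 2.3.3, Python 3.11.15; plots with matplotlib 3.10.9).

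Members called are given with every retina's value. Of the others, those past an adjusted p of 0.05, the 5 most abundant, the 3 with the smallest change, the ones next to each threshold and all untested ones are named. Of each list of other genes, up to 3 with the largest change are named. Irf3, Mavs, the microglia, Muller glia, myeloid and endothelium markers named singly and the E2 enzymes other than Ube2l6 were added after their values were seen. Members, lists and tests were chosen with earlier results of these data known. Promoters are from RefSeq on GRCm38.p6, and 52 of 67 members matched by symbol. Shared sequence was counted as 100-base stretches of the GENCODE M21 transcripts found in transcripts of another gene. One gene whose symbol fits the rule and a marker gene are not reported here. The 23 refits changed the pseudocount, filter, scaling, model, block, covariate or retinas included.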

Additional observations from a re-analysis of the deposited data

Results flagged for a closer look

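Single retinas stood apart from the other 4 of their group, by Dixon's test at 95%, in 8 of the 106 groups examined (53 members in NL and in LD), where chance gives 5.30. For called members these were Trim30a in NL-1, at 0.193 FPKM against 0.0377 to 0.0719 in the other NL retinas, and Trim34a in LD-8, at 0.329 FPKM against 1.07 to 1.25. Trim38 was at 0.236 FPKM in NL-4, with the other NL retinas at 0.0936 to 0.118. Trim37 was at 18.8 FPKM in NL-7 (others 19.8 to 20.2) and at 18.7 in LD-8 (others 17.1 to 17.4). Trim11 was at 12.3 FPKM in LD-7 (others 10.5 to 11.0), Trim66 at 2.54 in LD-4 (others 1.95 to 2.06) and Trim45 at 2.19 in NL-1 (others 1.77 to 1.85). These fell on 6 different retinas.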

How the results depend on the processing

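In 18 of 23 refits, all 10 called members kept their call, with the same sign throughout. Among these 18 was the refit with Xist presence as a covariate. With each retina left out in turn, 10 to 11 members were called, 9 to 10 higher and 1 lower, the addition being Trim38 without LD-1. With 1 added to the FPKM, or a filter at 1 FPKM, 8 members were called, without Trim14 and Trim34a. At an adjusted p under 0.05 with no minimum fold there were 22, 16 higher and 6 lower, or 22 higher and 2 lower (91.7% higher, from 72.7%) without the scaling factors or in TPM. With the 3 closest pairs averaged, 8 were called and 0 lower, Trim34a (limma adjusted p = 0.0133) and Trim36 (0.0103) losing their calls. The labels do not say whether equal replicate numbers pair retinas. Correlations of deviations between them were 0.06, 0.07, -0.01 and -0.09 for numbers 1, 4, 7 and 8. These show no strong shared deviation but cannot exclude a pairing. Over these 8 retinas, the fit with a replicate block called 7 members, 0 of them lower, without Trim14 (adjusted p = 0.0321), Trim34a (0.0204) and Trim36 (0.0316), and without the block 9, again 0 lower (Trim36 at 0.0138). Except where fewer genes or retinas entered, the cause was not tested. Members of few reads are limited by depth: those under 0.1 FPKM in NL rest on under 20 reads per retina.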
